A study of Mus musculus with 12 samples.

Results

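Histone H2A is one of the core histones around which DNA is wrapped, and 11 probes that carry H2A coding sequence were followed here across spleens of mice with mutated TREX1 and of control mice. The probes were chosen from 35852 mouse probes of the array by their sequence and by a detection flag. A probe was kept if its sequence, translated in the 3 sense frames, held at least 12 residues identical to human histone H2A type 1 (130 residues, aligned without gaps) and if its spleen channel carried the scanner's detection flag on 4 or more of the 12 arrays. Of 13 probes that met the sequence condition, 11 met the detection condition, and these 11 carried the flag on 12 of 12 arrays. The detection flag of the spleen channel is the only measured value in this rule, which uses no difference between genotypes. The members were, however, chosen with earlier results of these data known.

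Spleen RNA of C57BL6 mice was compared in 3 groups of 4 samples on 12 arrays. The mice of the first group carried a human TREX1 V235fs knock-in, the mutation seen most often in RVCL, a hereditary disease of small vessels. Those of the second carried a human TREX1 D272fs knock-in, a change near the C terminus that is linked to human lupus. Both alleles are labelled conditional, and the Cre driver, the age of the mice and any allele shared with the controls are not given in the sources used here. Controls are labelled as C57BL6 control mice. All mice were kept free of specific pathogens. On every array the spleen cDNA carried the dye Cy3 and a universal reference RNA the dye Cy5, with no dye swap. Values are log2 ratios of spleen over reference after loess normalisation within each array, so a value of 1 is a doubling relative to the reference. Since no label states that samples are separate animals, the spread behind each p-value may be partly or wholly technical.

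The V235fs arrays all lay on 1 slide and the D272fs arrays on another, scanned on the same day, and the controls were on 3 other slides with 2 other scan days. Slide and genotype therefore cannot be told apart for either knock-in, and neither can scan day and the presence of a knock-in. The spleen signal was well above background for 69.1% to 74.9% of spots per array. D272fs replicate 3 stood apart from the other arrays, with a mean correlation of 0.865 with its own group against 0.928 to 0.974 for the other 11 arrays, so values without it are given beside the results that rest on it. Nothing measured here counts cells: in a bulk tissue, fewer cells of a type and less RNA per cell cannot be told apart.

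H2A pairs with H2B, and these dimers join H3 and H4 to form the nucleosome. The canonical, replication-dependent histones are encoded by many near-identical genes in clusters, are transcribed mainly in S phase, and give mRNAs that end in a stem-loop rather than a poly(A) tail. The replacement variants H2A.Z and macroH2A come from genes outside the clusters, with polyadenylated mRNA made throughout the cell cycle; H2A.Z is known from promoters and macroH2A, with its large extra domain, from repressed chromatin such as the inactive X. TREX1 is a DNA exonuclease that degrades cytosolic DNA, and its loss is known for interferon signalling. TREX1 activity in these mice was not measured here, so neither knock-in is read as a loss of it. The spleen holds lymphocytes and, in mice, dividing blood precursors. The reverse transcription primer, which decides how well mRNAs without a poly(A) tail are copied, is not given in the sources used here.

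The members fell into 4 kinds by the part of the protein they encode. Of the 11, 7 covered the C-terminal tail, 2 the middle of the histone fold, 1 had a macroH2A sequence and 1 an H2A.Z sequence. The mouse RefSeq table (GRCm38.p6) lists 49 H2A-type gene symbols, 19 of them in the replication-dependent clusters, and the files do not pair probes with genes. Each canonical probe may therefore read several genes, and the probes are not independent measurements of H2A. The 5 tail probes that start at the same codon are shown because they give near-equal values in spite of their differences; capitals mark the 9 positions, of 60, at which they differ among themselves.
M400008865: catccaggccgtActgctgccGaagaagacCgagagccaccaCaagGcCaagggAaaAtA
M400012457: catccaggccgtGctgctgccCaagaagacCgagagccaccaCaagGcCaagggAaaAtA
M400012458: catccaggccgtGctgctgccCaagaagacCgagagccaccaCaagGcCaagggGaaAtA
M400012465: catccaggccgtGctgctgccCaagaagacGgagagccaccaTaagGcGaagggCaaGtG
M400007629: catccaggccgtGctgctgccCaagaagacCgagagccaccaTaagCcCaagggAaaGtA
The 10 pairs among these 5 differed at 1 to 8 positions; M400012457 and M400012458 differed at 1. Translated, 4 of them matched residues 112 to 130 of the query at 19 of 19 positions, and M400007629 at 18 of 19.

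The sixth tail probe, M400012323, shares the start of the tail but carries another C-terminal end, and 14 of its 19 residues matched the query without gaps. Capitals mark the 13 bases at which it differed from all 5 probes above in that ungapped alignment. It lacks a histidine codon (cac or cat) that the 5 probes carry. The bases after that codon are therefore compared out of step, and the 13 is not a count of substitutions. The seventh, M400007165, runs past the stop codon, shown in capitals; the 40 bases up to it are printed, and the 12 residues they hold (119 to 130) sat exactly at the selection limit.
M400012323: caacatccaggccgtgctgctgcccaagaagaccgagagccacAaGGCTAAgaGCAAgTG
M400007165: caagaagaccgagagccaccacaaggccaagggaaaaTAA
Over the 39 bases that they share, M400007165 and M400012457 were identical.

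The pair from the histone fold overlaps by 57 bases and differs at 1, the base in capitals, and each matched the query at 19 of 19 residues (76 to 94 and 77 to 95). Each also matched the variant H2A.X at 19 of 19 residues, so the match does not tell canonical H2A from H2A.X here. Both are counted with the canonical probes below.
M400008863: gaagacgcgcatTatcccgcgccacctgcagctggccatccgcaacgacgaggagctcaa
M400012322: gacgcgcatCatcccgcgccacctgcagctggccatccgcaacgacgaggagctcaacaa
The last pair shows that the rule also took in replacement variants. M200006926 matched macroH2A1 at 19 of 19 residues and the canonical query at 15, and M300013029 matched H2A.Z at 20 of 20 and the canonical query at 13.
M200006926: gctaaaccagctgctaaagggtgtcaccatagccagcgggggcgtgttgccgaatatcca
M300013029: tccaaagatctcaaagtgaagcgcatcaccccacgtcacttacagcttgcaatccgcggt

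The 9 canonical probes were among the brightest features of the array. By mean spleen signal they lay at percentiles 99.2 to 99.7 of the 26502 tested probes, and none was saturated. The H2A.Z probe lay at percentile 97.2 and the macroH2A probe at percentile 83.1. These ranks describe signal, which also depends on each probe's binding, and set no gene's level against another's.

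After loess, the 9 canonical probes gave their lowest mean log2 ratios in V235fs spleens and their highest in D272fs spleens. No difference passed the test across all probes in that fit. Averaged over the 9, the log2 ratio was -0.10, -1.23, -1.04 and -0.57 in V235fs replicates 1 to 4. It was 0.72, 0.07, 0.27 and -0.08 in D272fs replicates 1 to 4, and -0.59, 0.19, 0.25 and -0.21 in control replicates 1 to 4. V235fs replicates 2 and 3 lay below every control, whereas V235fs replicate 1 lay inside the control range and above control replicates 1 and 4. The group means were -0.73 ± 0.50 (SD, n = 4) in V235fs, 0.24 ± 0.35 (SD, n = 4) in D272fs and -0.09 ± 0.39 (SD, n = 4) in controls.

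M400008865, a tail probe, had the largest ratio difference of the 9 between V235fs and control, and of the 9 the largest reference-channel shift in that comparison, given with the dye channels. Its log2 ratio was 0.10, -1.16, -0.96 and -0.44 in V235fs, 0.85, 0.21, 0.39 and 0.02 in D272fs, and -0.44, 0.38, 0.45 and 0.17 in controls. Control replicate 1 was as low as V235fs replicate 4, so these groups overlap. The mean was -0.62 ± 0.57 (SD, n = 4) in V235fs, 0.37 ± 0.36 (SD, n = 4) in D272fs and 0.14 ± 0.40 (SD, n = 4) in controls.

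M400012465 differs from M400008865 at 8 of 60 bases and had the narrowest V235fs spread of the 9. It read -0.28, -0.97, -0.85 and -0.50 in V235fs, 0.65, 0.08, 0.27 and -0.01 in D272fs, and -0.44, 0.25, 0.33 and -0.37 in controls. The V235fs and D272fs values did not overlap, while control replicates 1 and 4 lay within the V235fs range. Its means were -0.65 ± 0.32 (SD, n = 4), 0.25 ± 0.29 (SD, n = 4) and -0.06 ± 0.41 (SD, n = 4) in that order of groups.

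M400012323, the probe with the other C-terminal end, gave -0.06, -1.24, -1.10 and -0.68 in V235fs, 0.65, 0.03, 0.31 and 0.00 in D272fs, and -0.53, 0.19, 0.32 and -0.14 in controls. Its D272fs values all lay above its V235fs values. M400008863, from the histone fold, gave -0.26, -1.34, -1.13 and -0.65 in V235fs, 0.57, -0.05, 0.13 and -0.23 in D272fs, and -0.59, 0.04, 0.11 and -0.14 in controls. In the histone fold as in the tail, V235fs replicate 2 was thus the lowest sample and D272fs replicate 1 the highest. M400007165, the probe that runs past the stop codon, gave 0.06, -1.06, -0.86 and -0.34 in V235fs, 1.04, 0.34, 0.46 and 0.02 in D272fs, and -0.70, 0.29, 0.30 and -0.31 in controls. V235fs replicates 2 and 3 were again the lowest of the 12 samples. The remaining 4 canonical probes, M400012457, M400012458, M400007629 and M400012322, had V235fs means of -0.85 to -0.76, D272fs means of 0.07 to 0.26 and control means of -0.23 to -0.12.

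Against control, all 9 canonical probes were lower in V235fs, by 0.45 to 0.76 on the log2 scale with a median difference of -0.64, which corresponds to 1.36- to 1.69-fold. None was called by limma after Benjamini-Hochberg adjustment over 26502 probes at an adjusted p under 0.05, a call that 0.849% of all tested probes received. The adjusted p-values of the 9 were 0.157 to 0.453 and the standard errors of the differences 0.22 to 0.30. Without adjustment, 8 of the 9 had p under 0.05 below control, which 10.2% of all tested probes had in that direction. That count rests on single arrays: it was 0 without V235fs replicate 2, 1 without V235fs replicate 3 or control replicate 3, 2 without control replicate 2, 5 without D272fs replicate 2 or control replicate 4, and 6 to 8 without any other single array (7 without D272fs replicate 3). M400007165 was the exception, at a difference of -0.45 (95% interval -1.10 to 0.21; limma adjusted p = 0.453). M400008863 had the smallest adjusted p of the 9, at a difference of -0.70 (SE 0.25, 95% interval -1.24 to -0.16; limma adjusted p = 0.157). M400008865 had the largest difference, -0.76 (SE 0.29, 95% interval -1.38 to -0.14; limma adjusted p = 0.174). In none of the 11 members did the 4 V235fs values and the 4 control values separate without overlap, as they did in 14.2% of all tested probes.

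Between D272fs and control the 9 canonical probes had a median difference of 0.31, with single differences of 0.23 to 0.57 and intervals that included 0; the sign of all 9 turned when each array was centred on its median in place of loess, to a median difference of -0.57. The median of all tested probes was -0.02 after loess and -0.25 with that centring, and the median of the 9 relative to it was -0.33. None was called by limma, with adjusted p of 0.356 to 0.702 against 0.0755% of all tested probes called, and none reached p under 0.05 without adjustment, as 16.7% of all tested probes did. The largest difference was that of M400007165, 0.57 (SE 0.30, 95% interval -0.09 to 1.23; limma adjusted p = 0.356). In none of the 11 members did D272fs and control separate without overlap, against 8.03% of all tested probes.

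After loess, the widest gap in group means was between the knock-in groups. All 9 canonical probes were then lower in V235fs than in D272fs, by 0.90 to 1.02 on the log2 scale or 1.86- to 2.03-fold. With median centring the median difference of the 9 was -0.67 between the knock-ins, against -1.22 between V235fs and control. With median centring on the negative-control background these medians were -1.02 and -1.25, so which gap was widest depended on the normalisation. In the loess fit the smallest adjusted p was that of M400012465, at a difference of -0.90 (SE 0.22, 95% interval -1.38 to -0.42; limma adjusted p = 0.216). The others had limma adjusted p up to 0.265, so none was called, in a comparison that called 1 probe in all (0.00377%). Without adjustment 9 of 9 had p under 0.05 in this direction, against 4.53% of all tested probes, and this count was 9 without any single array. In 4 of the 9 (M400012465, M400012323, M400008863 and M400012322) the lowest D272fs value exceeded the highest V235fs value, against 2.30% of all tested probes. The 9 share sequence and move together, so these counts are not counts of independent measurements.

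This comparison shares the V235fs samples with the first and the D272fs samples with the second, and both comparisons with control share the control samples. The 4 V235fs replicates and the 4 D272fs replicates occupied the same 4 positions on their slides, while the controls lay at position 4 (replicates 1, 2 and 4) and position 1 (replicate 3). Within position 4 the mean over the 9 was -0.10 in V235fs, 0.72 in D272fs and -0.59, 0.19 and -0.21 in controls, so V235fs lay within the control range there. Within position 1 it was -0.57 in V235fs, -0.08 in D272fs and 0.25 in the control. With position as a fixed block the median difference of the 9 from control was -0.35 in V235fs and 0.58 in D272fs.

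The dye channels were also read on their own, after loess and a quantile step that gave all arrays the same distribution of mean log signal. Each channel's level was rebuilt from that mean signal and the loess ratio. The spleen and reference levels of an array are therefore not independent readings. In the spleen channel the 9 canonical probes were 0.25 to 0.55 lower in V235fs than in control and 0.54 to 0.82 lower than in D272fs, on the log2 scale. Of these, 1 was called in V235fs against D272fs, M400012465, at a difference of -0.63 (SE 0.15; limma adjusted p = 0.0392), against 2.14% of all tested probes called lower. Its spleen level was 15.25 ± 0.26 (SD, n = 4) in V235fs, 15.88 ± 0.28 (SD, n = 4) in D272fs and 15.74 ± 0.12 (SD, n = 4) in controls.

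In the reference channel, where every array holds the same universal RNA by its label, the 9 were 0.06 to 0.51 higher on the V235fs arrays than on the control arrays. There 3 of the 9 were called higher by limma (M400008865, M400008863 and M400012322), against 18.0% of all tested probes. For M400008865 the reference level was 16.08 ± 0.05 (SD, n = 4) on V235fs arrays, 15.63 ± 0.06 (SD, n = 4) on D272fs arrays and 15.57 ± 0.20 (SD, n = 4) on control arrays. Its reference difference between V235fs and control, 0.51 (SE 0.08; limma adjusted p = 0.00107), stands beside a ratio difference of -0.76. In the spleen channel its level was 15.46 ± 0.54 (SD, n = 4) in V235fs, 16.00 ± 0.34 (SD, n = 4) in D272fs and 15.71 ± 0.22 (SD, n = 4) in controls. V235fs minus control was -0.25 there (SE 0.25, 95% interval -0.79 to 0.29; limma adjusted p = 0.546), the smallest spleen-channel difference of the 9. Between V235fs and D272fs arrays the reference signal of the 9 was 0.20 to 0.45 higher, with 6 of the 9 called, against 8.65% of all tested probes. The part of this shift in the ratios was not tested; the spleen channel alone kept the direction with smaller differences, a median of -0.49 against control and of -0.70 against D272fs.

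The macroH2A probe M200006926 went another way from the canonical probes. Its log2 ratio was 0.19, 0.58, 0.94 and 0.78 in V235fs, 0.83, 0.86, -0.03 and 0.49 in D272fs, and -0.24, 0.15, 0.03 and 0.21 in controls. In V235fs 3 of 4 replicates lay above every control, and in D272fs likewise 3 of 4, with replicate 3 inside the control range. With the background taken from negative-control spots, D272fs replicate 3 read 0.28, where the highest control value was 0.21. The mean was 0.62 ± 0.32 (SD, n = 4), 0.54 ± 0.42 (SD, n = 4) and 0.04 ± 0.20 (SD, n = 4) in V235fs, D272fs and controls. The difference from control was 0.58 in V235fs (SE 0.21, 95% interval 0.13 to 1.04; limma adjusted p = 0.159), a difference with p under 0.05 before adjustment, as 9.28% of all tested probes had in that direction. It was 0.50 in D272fs (SE 0.21, 95% interval 0.04 to 0.95; limma adjusted p = 0.263), a sign that turned with median centring, to -0.05. Without D272fs replicate 3 this difference was 0.69, and on the negative-control background it was 0.58 (limma adjusted p = 0.104). With arrays weighted by quality it was called, at 0.66 (limma adjusted p = 0.019), in a fit that called 12.7% of all tested probes. The V235fs minus D272fs difference was 0.08 (95% interval -0.37 to 0.54; limma adjusted p = 0.903), and it was -0.11 without D272fs replicate 3. In the reference channel this probe was 0.31 lower on D272fs than on control arrays (limma adjusted p = 0.0356) and 0.33 higher on V235fs than on D272fs arrays (limma adjusted p = 0.0214). In the spleen channel alone the difference from control was 0.60 in V235fs (limma adjusted p = 0.0764) and 0.19 in D272fs (limma adjusted p = 0.618). V235fs minus D272fs was 0.41 there (95% interval -0.03 to 0.85; limma adjusted p = 0.223).

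The H2A.Z probe M300013029 was the steadiest member. It read -0.56, -0.96, -0.73 and -0.77 in V235fs, -0.53, -0.73, -0.57 and -0.57 in D272fs, and -0.54, -0.43, -0.48 and -0.75 in controls. The groups overlapped, with means of -0.76 ± 0.16 (SD, n = 4), -0.60 ± 0.09 (SD, n = 4) and -0.55 ± 0.14 (SD, n = 4). V235fs was below control by 0.21 with an interval of -0.42 to 0.01 (limma adjusted p = 0.273). It was called with array weights, at -0.30 (limma adjusted p = 0.0125), and with median centring on a negative-control background, at -0.73 (limma adjusted p = 0.0131), and was -0.70 with median centring alone (limma adjusted p = 0.282). D272fs minus control was -0.05 (95% interval -0.26 to 0.16; limma adjusted p = 0.812), and this sign turned in the spleen channel alone, at 0.10. The probe was also called lower in D272fs with median centring on a negative-control background (limma adjusted p = 0.038). With median centring alone its D272fs minus control difference was -0.88, not called. V235fs minus D272fs was -0.16 (95% interval -0.37 to 0.06; limma adjusted p = 0.553), and this sign turned with median centring, at 0.18, and with scaling between arrays, at 0.47.

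Over all 11 members the median difference from control was -0.63 in V235fs and 0.31 in D272fs, and the median V235fs minus D272fs difference was -0.98. Over all tested probes the same medians were 0.00, -0.02 and 0.02. With arrays weighted by quality, weights were 0.663 to 2.80 in V235fs, 0.149 (replicate 3) to 2.02 in D272fs, and 0.458, 4.04, 1.13 and 0.432 in control replicates 1 to 4. In that fit the median difference of the 9 from control was -0.99 in V235fs and 0.16 in D272fs, against -0.64 and 0.31 with equal weights. There all 11 members were called against control in V235fs (10 lower and the macroH2A probe higher; 14.4% of all tested probes called lower), and the 9 canonical probes were called lower than in D272fs (4.74% of all tested probes called lower). Leaving out single arrays called no member.

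Among themselves the 9 canonical probes varied as 1 signal. The 36 pairwise correlations over the 12 arrays were at least 0.95, given as a description over arrays that share slides and groups. The H2A.Z probe correlated with the 9 at 0.65 to 0.76 and the macroH2A probe at -0.28 to -0.02. Within groups, the SD of the 9 was 0.34 to 0.48, at percentiles 85.9 to 94.2 of all tested probes, whose median SD was 0.17. The H2A.Z probe had a within-group SD of 0.13. The canonical probes thus differed more between samples of 1 genotype than most probes of the array did.

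H2B, H3 and H4 probes were found by the same sequence and detection rule. Of 8 H2B probes, 8 were called lower in V235fs than in control by limma, with a median difference of -0.70, against 0.355% of all tested probes called lower. Of 10 H4 probes, 6 were called lower, with a median of -1.05, and of 15 H3 probes, 2 were, with a median of -0.53. Called or not, all 8 H2B and all 10 H4 probes were lower. Of the 15 H3 probes 10 were lower and 5 were higher, the 5 by 0.19 to 0.30. Some of these probes cover the same residues, as the H2B probes M400008866 and M400008872 do (41 to 60), so they are not independent measurements either. In the reference channel the median V235fs minus control difference was 0.16 for H2B, 0.09 for H3 and 0.10 for H4, and 0.04 over all tested probes. In the spleen channel alone the class medians were -0.61, -0.41 and -0.96. The counts of called probes changed with single arrays and with the block. For H2B they fell to 0 without V235fs replicate 2, 3 or 4 or without control replicate 2, to 3 without control replicate 1 or 4, to 4 without D272fs replicate 1 and to 5 without control replicate 3. For H3 they were 5 without V235fs replicate 1, 10 without D272fs replicate 3 and 3 without D272fs replicate 4. They were 1 without control replicate 1 and 0 without any other array. For H4 they were 10 without V235fs replicate 1, 5 without V235fs replicate 2 and 4 without V235fs replicate 3 or 4. The H4 count was 8 without D272fs replicate 3 and stayed at 6 without any other array. With slide as a random block 2 of 8 H2B, 0 of 15 H3 and 6 of 10 H4 probes were called lower; a fixed block for position left 0, 0 and 1.

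H2A's partner H2B did not follow the H2A order of samples. The mean over the 8 H2B probes was -0.22, -0.50, -0.65 and -0.57 in V235fs, -0.07, 0.12, -0.16 and 0.21 in D272fs, and 0.29, 0.15, 0.16 and 0.26 in controls. Every V235fs array lay below every control in this mean, and control replicate 1, the lowest control for H2A, was the highest for H2B. The H2B probe with the largest difference among those called, M400005636, was -1.08 ± 0.26 (SD, n = 4) in V235fs and -0.19 ± 0.06 (SD, n = 4) in controls, a difference of -0.89 (SE 0.13; limma adjusted p = 0.0204). Its H3 counterpart by the same choice, M400008864, differed by -1.17 (SE 0.23; limma adjusted p = 0.0435), and the H4 counterpart M400008877 by -1.05 (SE 0.12; limma adjusted p = 0.00649).

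In D272fs the H2B median difference from control was -0.20, the H3 median -0.28 and the H4 median -0.81, where the canonical H2A median was 0.31 under the same normalisation. Again 10 H3 probes were lower and 5 higher. The canonical H2A median leaves out the macroH2A and H2A.Z probes, whereas the H2B, H3 and H4 probes were not split into canonical and variant ones. With median centring all 4 class medians were lower, at -0.72 for H2B, -1.10 for H3, -1.04 for H4 and -0.57 for the canonical H2A probes. Of the H4 probes 4 were called lower in D272fs by limma, against 0.0415% of all tested probes, and of the H2B and H3 probes 0 and 0 were. The H4 count was 6 without V235fs replicate 1 or D272fs replicate 3, 1 without control replicate 2 and 0 without any other array, and either block, slide or position, left 0 called. The difference between H2A and the other classes was not tested, since the classes share the same arrays.

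The non-member probes most like the mean of the members over the 12 arrays were no histones by the sequence match. They were M300001903, M300005666, M200002468 and M200013840, at a correlation of 0.98 each, and M300005764 at 0.97. None of these 5 was called in V235fs against control; M300001903 differed by -0.58 there (limma adjusted p = 0.297). The best-placed other histone was the H2B probe M400007964, at a correlation of 0.63 and rank 1069 of the tested probes.

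At the selection limits, M300013029 (13 identical residues) and M400007165 (12) were just inside. M400008600, with 10 identical residues, was just outside and was detected on 12 arrays. It covers only residues 1 to 10 of the query and matched at all 10 of them. Its log2 ratio was -0.06, -1.23, -1.20 and -1.07 in V235fs, -1.03, -1.10, -0.02 and 0.16 in D272fs, and 0.96, 0.37, 0.15 and 0.49 in controls. Both knock-in means, -0.89 and -0.50, lay below the control mean of 0.49. V235fs minus control was -1.38 (SE 0.34; limma adjusted p = 0.068), not called. The V235fs values all lay below the control values, where 14.2% of all tested probes separated without overlap. D272fs minus control was -0.99 (SE 0.34; limma adjusted p = 0.193), where the median of the 9 canonical probes was 0.31. The 2 probes that met the sequence condition but not the detection condition, M300019586 (16 identical residues) and M400007925 (14), were well above background on 1 and 2 arrays and read -0.26 to 0.14 and -0.17 to 0.26 over the 12 arrays.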

How the data were processed

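Spleen RNA against a universal reference was read on 12 two-colour arrays. The deposited scanner files give intensity values of both dyes, spot means and local background medians, written by Feature Extraction, version 11.5.1.1 per the headers, and its log10 ratio of Cy5 over Cy3. Ratios in the authors' value table equalled these log10 ratios within 0.005. The signals of D272fs replicate 4 were rounded to 3 significant digits as deposited. Each array had 37558 spots, 1417 of them controls; 114 spots flagged as outliers were set to missing. In limma 3.58.1 (R 4.3.3), normexp with an offset of 50 corrected the background and ratios were normalised by loess. For single-channel levels, the mean log2 signal of both dyes was also quantile-normalised between arrays (Aquantile). Probes well above background in Cy3 on at least 4 of 12 arrays with at least 2 values in each group, 26502 in all, were fitted with 1 mean per group over the 12 arrays (9 residual and 2.62 prior degrees of freedom) and adjusted together by Benjamini-Hochberg. The fit was checked on simulated data. The number of arrays limits the precision.

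The H2A query and those of H2B, H3, H4, H2A.X, H2A.Z and macroH2A were written from general knowledge of these proteins. The members and lists were chosen with earlier results of these data known. Every member is named; of each other class the largest called difference in V235fs against control, and the 5 non-members most correlated with the members' mean. The files name no genes, so the planned lists of histone supply and cell cycle genes, interferon genes and cell type markers, the H1 class, and Trex1 itself were not analysed here, and the label spleen was not checked against markers. Same-numbered samples did not deviate together (correlations of -0.51 to 0.35), so numbers were not taken as pairs.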

Additional observations from a re-analysis of the deposited data

How the results depend on the processing

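The number of alternatives run was 33, of which 4 were added after the data were seen. In V235fs against control the median difference over the 11 members was -1.21 with median centring and -1.24 with median centring on a negative-control background (added), where the median of all tested probes was -0.15 and -0.17; it was -0.87 to -0.46 over the leave-one-out fits. The count of members called was 1 without background subtraction (10.6% of all tested probes called), the macroH2A probe, which was higher. It was 11 with array weights (28.8%), 10 of them lower and the macroH2A probe higher. With the spleen channel alone on a negative-control background (added, 19.5%) it was 2, 1 canonical probe lower and the macroH2A probe higher. With median centring on that background (20.5%) it was 10, the 9 canonical probes and the H2A.Z probe, all lower. In D272fs against control the median was -0.57 and -0.25 under the same centring settings and 0.17 to 0.44 over the leave-one-out fits. There 1 member was called with array weights (12.7% of all tested probes), the macroH2A probe, which was higher. Another 1 was called with median centring on the negative-control background (12.8%), the H2A.Z probe, which was lower. In V235fs against D272fs 1 member was called with the spleen channel alone (5.85% of all tested probes), 9 with array weights (6.70%) and 2 with the spleen channel alone on a negative-control background (10.4%); the median was -1.21 to -0.80 over the leave-one-out fits, in all of which 0 members were called. The cause of these changes was not tested.

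Signs turned in D272fs against control with median centring, to -0.05 for M200006926, -0.36 for M400007165, -0.55 for M400007629, -0.66 for M400008863, -0.68 for M400008865, -0.61 for M400012322, -0.61 for M400012323, -0.55 for M400012457, -0.55 for M400012458 and -0.57 for M400012465. On the negative-control background with median centring they turned to -0.03 for M400007165, -0.23 for M400007629, -0.33 for M400008863, -0.35 for M400008865, -0.28 for M400012322, -0.29 for M400012323, -0.22 for M400012457, -0.22 for M400012458 and -0.25 for M400012465. M300013029 in that comparison was 0.10 with the spleen channel alone, 0.11 with it on the negative-control background, and 0.03 with position as a block on either background. In V235fs against D272fs M300013029 was 0.18 with median centring and 0.47 with scaling, and M200006926 was -0.02 with array weights, -0.11 to 0.23 over the leave-one-out fits (negative without V235fs replicate 3, at -0.02, or D272fs replicate 3), -0.10 without it on the negative-control background and -0.04 with median centring on that background. With the replicate block no member was called, and the adjusted p of the 9 canonical probes was 0.245 to 0.552 in V235fs against control. Over all tested probes the calls in V235fs against control ranged from 4 to 7637 between alternatives. With slide as a random block the members' median differences were -0.62, 0.32 and -0.98.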
